A study of Mus musculus with 8 samples.

Results

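Atrx, Daxx, Tert, Terc, Terf1 and Terf2, genes of histone H3.3 deposition and of telomere maintenance, were described through the regions of 1 pooled bisulfite sequencing list from mouse glioma and astrocyte lines. Every region that shared at least 1 bp with 1 of these 6 genes or with the 5000 bp to either side was taken, which gave 52 of the 220894 regions in the list. All 6 genes had at least 2. Genomic DNA of 8 lines had been captured with a kit for mouse methylation targets (Agilent SureSelect XT) before bisulfite sequencing, in which unmethylated cytosine is converted and methylated cytosine is read as cytosine. The study set IDH mutant against IDH wild-type lines.

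The lines fell into 3 groups. There were 4 IDH mutant tumour lines and 2 IDH wild-type tumour lines described as RAS gliomas, and 2 immortalized IDH wild-type astrocyte lines, named PDGFA and IWT-PDGFA, of which IWT-PDGFA expressed exogenous wild-type IDH1. All mice carried N::TVA, a transgene for the avian virus receptor TVA, and Cdkn2a lox/lox, on a mixed background of C57Bl/6, 129 and FVB/n. Mice behind the mutant tumour lines and both astrocyte lines carried Atrx lox/lox as well, whereas those behind the wild-type tumour lines did not. Mutant and wild-type tumour lines therefore also differed in the Atrx genotype of the mice, and mutant and astrocyte lines in cell type. The sources used here do not give the age and sex of the mice, or whether the floxed Atrx segment was deleted in a line. The list holds 1 score per region for all 8 lines together and no methylation level. No difference between groups, no replicate error and no depth per line could be given, and the cell types could not be checked against markers. Widths and scores below are therefore a description of the listed regions at these genes. A stretch without a region is not shown to have been missed by the assay.

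Telomeres are the repeat ends of chromosomes, kept in length by telomerase, a reverse transcriptase (TERT) that copies a template in its own RNA subunit (Terc). Shelterin proteins coat the repeats, among them TRF1 (Terf1), which restrains elongation, and TRF2 (Terf2), which keeps ends from being joined or read as breaks. ATRX, a chromatin remodeller, works with the histone chaperone DAXX to place the histone variant H3.3 at telomeres and other repeats. In human glioma, ATRX loss accompanies IDH mutation in astrocytic tumours and goes with a telomerase-independent lengthening of telomeres.

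Promoter windows are shown first because the list covered them unequally. RefSeq (GRCm38.p6, the assembly that mm10 names) gives a window of 250 bases before to 50 bases after the start site for Atrx, Daxx, Tert and Terf2. Where a gene has several start sites, the most upstream is shown. The windows lie at chrX:105929323-105929622 (minus strand) for Atrx, chr17:33909195-33909494 (plus) for Daxx, chr13:73626661-73626960 (plus) for Tert and chr8:107096499-107096798 (minus) for Terf2. They are printed 5′ to 3′ on the strand of the gene, with each CpG, the site of methylation, in capitals.
Atrx: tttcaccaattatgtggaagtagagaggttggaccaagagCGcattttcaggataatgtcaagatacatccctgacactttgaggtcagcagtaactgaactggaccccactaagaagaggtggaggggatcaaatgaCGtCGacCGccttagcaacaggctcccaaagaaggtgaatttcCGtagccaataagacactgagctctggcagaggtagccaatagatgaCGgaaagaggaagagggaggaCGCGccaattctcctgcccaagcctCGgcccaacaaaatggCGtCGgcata
Daxx: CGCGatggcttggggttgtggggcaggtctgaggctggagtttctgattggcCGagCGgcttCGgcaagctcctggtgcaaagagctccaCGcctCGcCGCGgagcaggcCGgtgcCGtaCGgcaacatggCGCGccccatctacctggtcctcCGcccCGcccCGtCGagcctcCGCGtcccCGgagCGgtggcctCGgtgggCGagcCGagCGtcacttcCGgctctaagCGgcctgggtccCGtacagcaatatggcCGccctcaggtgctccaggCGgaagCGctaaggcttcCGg
Tert: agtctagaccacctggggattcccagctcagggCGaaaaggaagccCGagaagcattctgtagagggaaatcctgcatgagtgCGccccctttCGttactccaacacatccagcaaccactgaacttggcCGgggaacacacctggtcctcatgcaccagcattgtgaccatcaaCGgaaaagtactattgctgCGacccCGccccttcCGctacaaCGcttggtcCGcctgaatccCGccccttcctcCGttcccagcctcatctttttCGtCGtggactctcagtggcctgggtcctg
Terf2: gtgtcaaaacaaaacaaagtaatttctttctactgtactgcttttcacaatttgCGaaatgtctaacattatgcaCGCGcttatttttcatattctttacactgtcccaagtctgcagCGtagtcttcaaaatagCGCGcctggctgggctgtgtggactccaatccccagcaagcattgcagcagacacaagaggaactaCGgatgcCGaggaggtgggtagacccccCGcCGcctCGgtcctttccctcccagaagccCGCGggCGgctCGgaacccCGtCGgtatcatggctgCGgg

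The 4 windows differed both in CpG number and in how much of them lay in a region. The Atrx window held 11 CpGs, and all 11 lay inside a region of 800 bp. All 15 CpGs of the Tert window likewise lay inside a region, of 1630 bp. Of the 33 CpGs of the Daxx window, 5 lay inside regions and 28 outside. None of the 18 CpGs of the Terf2 window lay in a region. Over 17492 protein-coding genes with a window, 44.6% of all window CpGs lay in regions.

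A region touched the window in 3 of the 4 genes, against 58.2% of protein-coding genes, and the window lay wholly inside regions in 2 of them, against 25.6%. Terf2 was the 1 gene of these 4 without a region there, compared with 41.8% of all genes. Counts out of 4 genes are too small to set the members apart from that background. Coverage over all genes varied with CpG number, though not in 1 direction. With 0 to 4 CpGs, a class without a member, 8.83% of windows were wholly covered and 83.2% had no region. Among genes with 10 to 14 CpGs, where Atrx stands, 51.3% of windows were wholly covered and 14.9% had no region. With 15 to 19 CpGs, the class of Tert and Terf2, 49% were wholly covered and 10.6% had none. For 30 or more CpGs, the class of Daxx, 8.03% were wholly covered and 39.8% had none. Terf2 was thus in the smaller share of its CpG class, whereas partial cover, as in Daxx, made up the rest of the Daxx class.

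**Figure D1:**
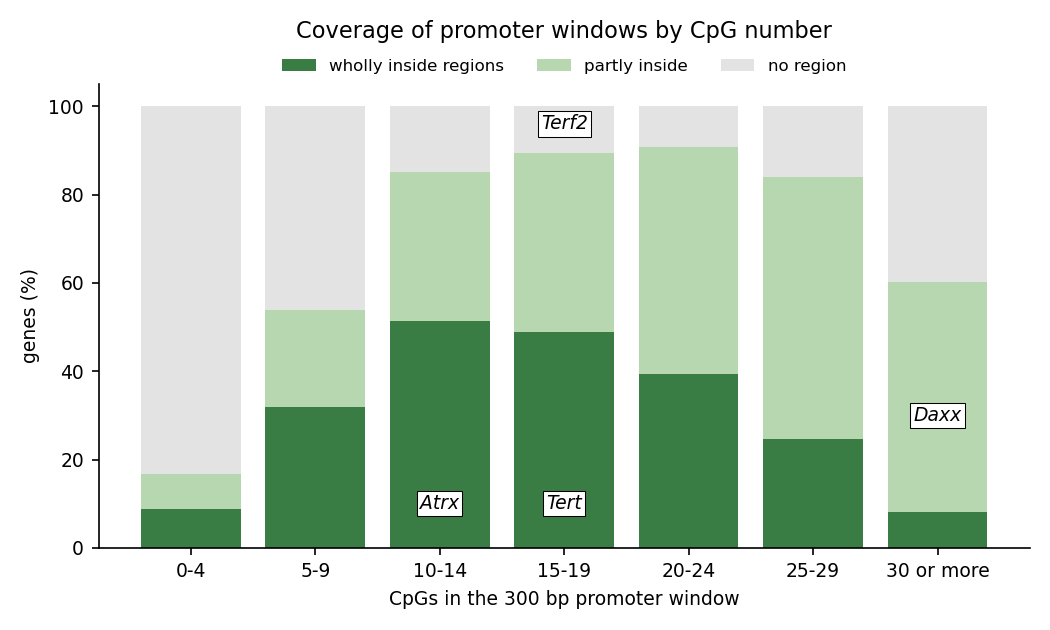
Share of protein-coding genes (%, y axis) whose 300 bp promoter window lay wholly, partly or not at all inside regions, by the number of CpGs in the window (x axis). Labels mark the class and outcome of Atrx and Tert (wholly inside), Daxx (86 of 300 bp inside) and Terf2 (no region); a label's height within its segment has no meaning.

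Letters of 3 promoter motifs were searched on both strands of the same windows. The CCAAT box (CCAAT) occurred 4 times in the Atrx window, a number reached by 1.34% of all windows (a count made after the matches were seen), and 1 time each in the Daxx and Terf2 windows; 39.2% of windows held at least 1. GC boxes (GGGCGG), which contain a CpG, occurred 3 times in the Daxx window, 2 times in the Tert window and 1 time in the Terf2 window, and 46.3% of all windows held one or more. The E-box (CACGTG) was in none of the 4 windows and in 7.91% of all. No match of 1 motif overlapped a match of another in these 4 windows. Of the GC boxes, both in Tert lay inside the covered region, whereas all those in Daxx and Terf2 lay outside regions. The Daxx matches that begin at -97 and -92 from the start site share a base. All motif matches are matches of letters and not shown to be bound.

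Scores in the list rose steeply with width, so each score was set against all regions of the list within 50 bp of the same width and given as a percentile (the share of those regions with a lower score, with ties counted at 0.5). By that measure 20.9% of all regions stood at or above percentile 75, called the upper band below, and 23.1% stood under percentile 25, called the lower band. Of the 52 regions at the 6 genes, 11 (21.2%) were in the upper band and 15 (28.8%) in the lower, both near the share over the list. Their median percentile was 42.3 with quartiles of 19.9 and 70.8, against 51 over all regions and 49.4 over the 142739 regions in or near a protein-coding gene. Their widths ran from 100 to 1840 bp with a median of 385 bp, and their scores from 118 to 1686 with a median of 369; over all regions the medians were 460 bp and 462. No region is narrower than 100 bp, so the narrowest were compared with regions as wide or wider.

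**Figure D2:**
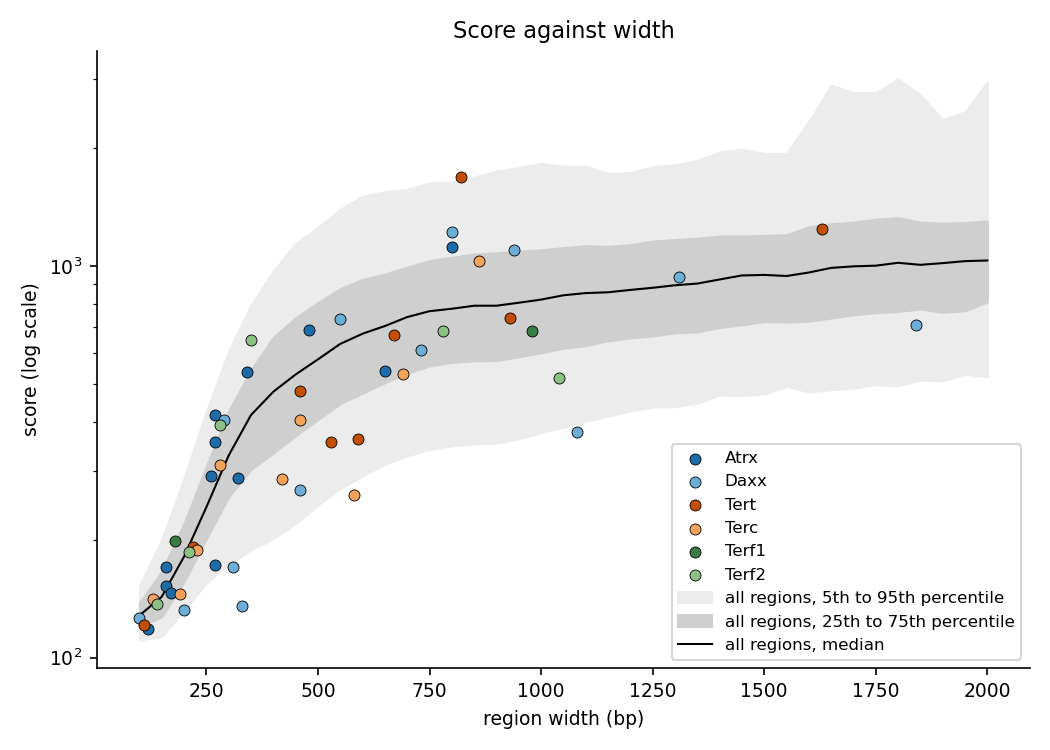
Score (log scale, y axis) against region width in bp (x axis) for the 52 regions at the 6 genes (points), over the median and percentile bands of all regions of that width. The highest point is the Tert region with a score of 1686, and the Daxx regions with scores of 135 and 377 are among those below the outer band.

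The chromatin remodeller gene Atrx (chromosome X, 105797615 to 105929372) had 13 regions, all inside the gene or across its end, and none in the flanks. Their median width was 270 bp, and they covered 2.84% of its 131758 bp; genes of like length (within 20%) had a median of 15 regions and 5.34% covered. The highest score, 1118, belonged to the region over the start site (chrX:105929101-105929900), at percentile 79.1 for its width. The next region into the gene scored 687 (percentile 66.3), and the one after it 355 (percentile 75.2). All 3 regions at the start side were thus above the middle of their width class. Beyond them came the longest stretch of the gene without a region, 36410 bp. The other 10 regions scored between 118 and 538, with percentiles from 6.85 to 86.5. The lowest of these percentiles (score 172, 270 bp) and another at 52.6 lay over Gm14853, a transcribed pseudogene inside Atrx.

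At matched width Atrx had the highest gene median of the 6, except that with widths matched within 20 bp Terf1 (62.7 over 2 regions) stood above it (59.2). The median percentile over its 13 regions was 63.0, above 82.4% of 2506 protein-coding genes with a number of regions within 2 of its own, whose median was 48.9. The gene had 4 regions in the upper and 2 in the lower band. Compared with regions of chromosome X only, the gene median was 63.3. Mice with floxed Atrx gave 6 of the 8 lines, and pooled scores do not separate those lines from the other 2. The sources used here do not place the lox sites.

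Daxx (chromosome 17, 33909404 to 33915590), which encodes the partner of ATRX, lies in a gene-dense stretch and also had 13 regions, 5 in the gene and 8 in the flanks. With flanks counted, that number exceeded most genes of its size, since 99.4% of 1581 genes of like length had 13 or fewer and their median was 4. Of the 13, 6 lay in another gene. Regions covered 23.4% of Daxx itself, above 65.3% of genes of like length, whose median was 16.3%. In the gene and just before it, percentiles differed by position. Around the start, the region that ends 124 bp before the gene (1080 bp wide) scored 377, at percentile 4.04. The region from 107 bp into the gene (330 bp) scored 135, at percentile 0.521, the lowest of all 52. Further in, scores were 268 (percentile 9.68), 126 (percentile 42.7) and 170 (percentile 3.97). At the other end of the gene, by contrast, a region of 800 bp scored 1220, at percentile 84.8. Low percentiles for width therefore ran from just before the gene to the region that begins 2317 bp into it, with the exception of the narrowest, which was 100 bp wide.

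The most upstream start site of Daxx itself (position 33909445) was in none of these regions. It fell in a gap of 230 bp between 33909280 and 33909511, where 28 of the 33 CpGs of the window printed above lie. Another RefSeq start site (33909498) lay in the same gap, and the most downstream (33909601) in the region with a score of 135. Low scores at starts were common in the list, since 37.8% of the 10185 regions on promoter windows were in the lower band, against 23.1% of all regions. The Daxx region that touches the most upstream window ranked above those of 8.46% of these genes.

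Flanking regions of Daxx overlapped its neighbours. On the lower-numbered side 3 lay in Smim40 and 1 in the non-coding gene BC051226, and on the other side 2 lay in Tapbp, which encodes an antigen-loading chaperone, 1 of them also in Zbtb22. Scores in the 8 flanking regions ran from 132 to 1096 and percentiles from 4.04 to 75.8. Over all 13 regions the median percentile was 32.8, above 22.7% of 2506 comparable genes. Over the 5 regions in the gene alone it was 9.68, and with a flank of 1000 bp 6.86, so the flanks raise the value of Daxx by more than 1.5 times. With the whole list limited to scores of 200 or more, which drops the Daxx regions with scores of 126, 132, 135 and 170, the median of the remaining 9 was 54.4.

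**Figure D3:**
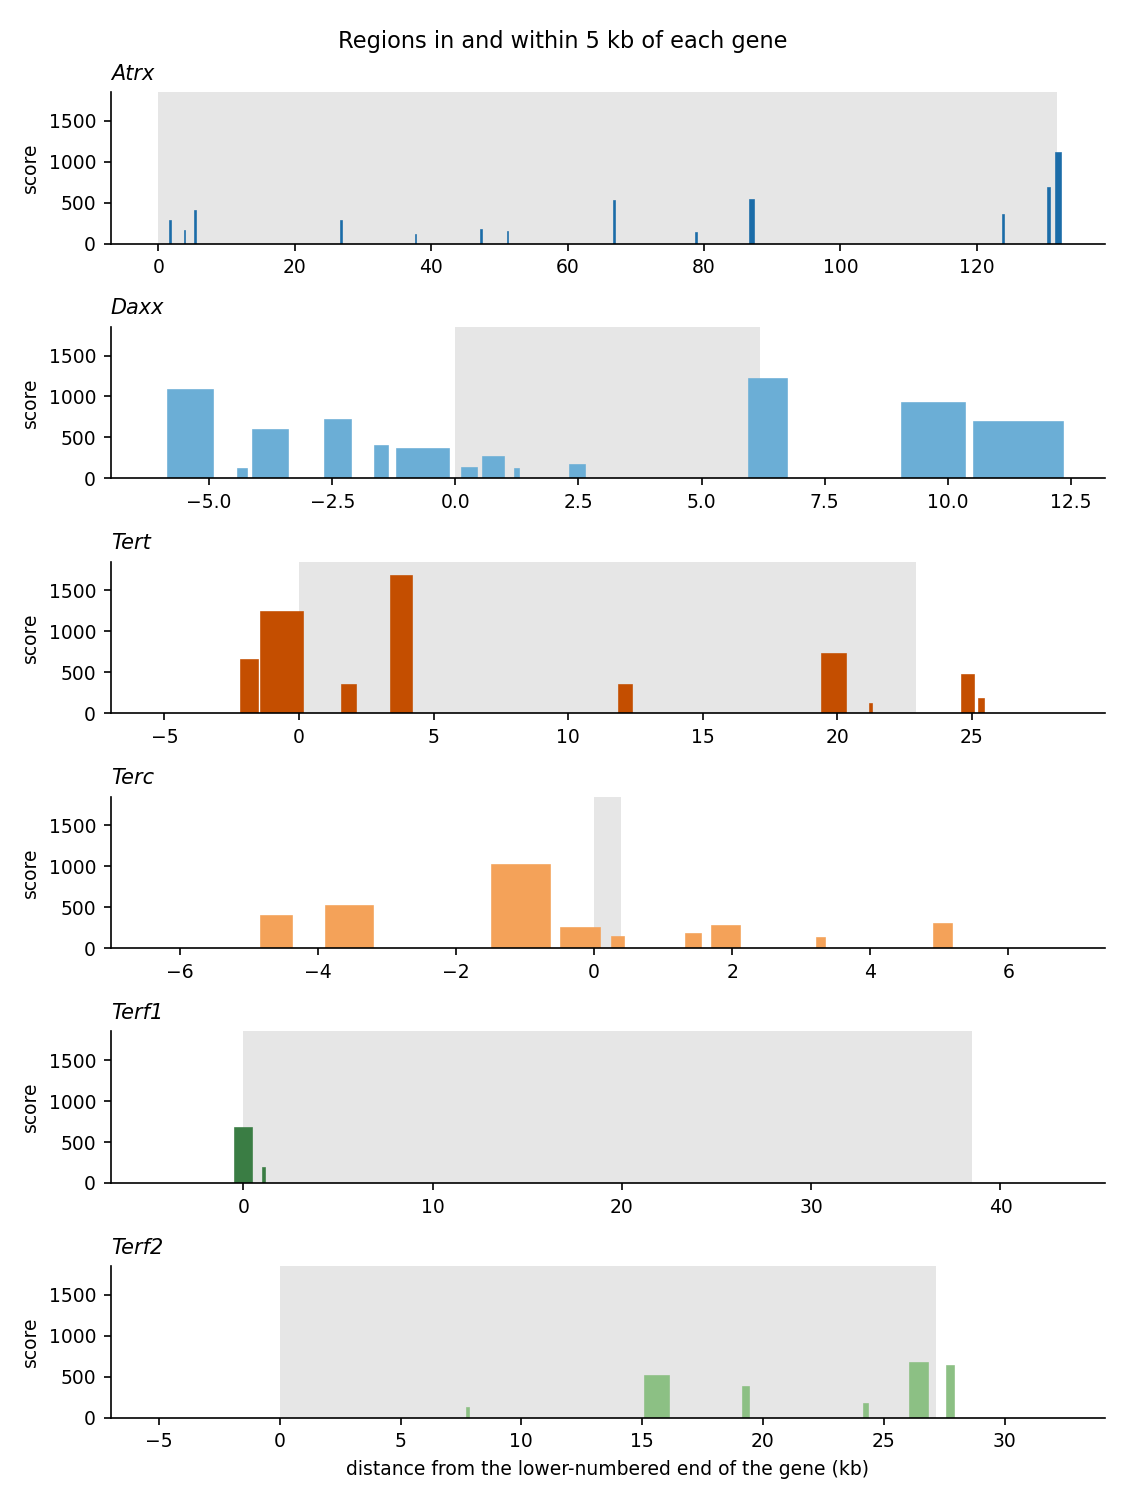
Regions at each gene, drawn to their width at their distance in kb from the lower-numbered end of the gene (x axis), with the score as height (y axis, same range in all panels); grey marks the gene. Scores at Daxx are low around the start (377, 135, 268) and high at the other end of the gene (1220). The Tert peak of 1686 lies inside the gene, and both Terf1 regions lie at the lower-numbered end.

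Tert (chromosome 13, 73626911 to 73649843), the catalytic subunit of telomerase, had 9 regions, 6 of them in the gene or across its end and 3 in the flanks. The region over the start site was the widest at any of the 4 starts with a window (chr13:73625441-73627070, 1630 bp) and scored 1245, at percentile 73.3. That percentile was above those at 84% of genes with a region on the promoter window, counted by 1 region per gene. The highest score of all 52 regions, 1686, also belonged to Tert. It lay 3380 bp into the gene (chr13:73630291-73631110, 820 bp), at percentile 95.2, the highest of the 52. Directly between these 2 high regions lay one of 590 bp that scored 361, at percentile 11.8. Other regions in the gene scored 355 (percentile 15.1), 737 (percentile 42.9) and 121 (percentile 23.8). Those in the flanks scored 667, 478 and 191, and their percentiles were close together, from 40.9 to 43.8.

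Tert as a whole was near the middle. Its median percentile was 41.9, above 40.2% of 5534 comparable genes, with 1 region in the upper and 3 in the lower band. Regions covered 13.7% of the gene, above 72.6% of 2498 genes of like length, whose median was 8.90%. No region of Tert overlapped another annotated gene. Scores within Tert thus ranged more widely for their width, from percentile 11.8 to 95.2, than its median shows.

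Terc (chromosome 3, 96414437 to 96414833), the telomerase RNA gene, is 397 bp long and had 9 regions, 2 touching the gene and 7 in the flanks. The region across its lower-numbered end (580 bp) scored 260, at percentile 3.40. The one across its higher-numbered end (190 bp) scored 145, at percentile 20.5. Between them 150 bp inside the gene had no region, and 62.2% of the gene was covered. The nearest region on the lower-numbered side, 637 bp away and 860 bp wide, scored 1030, at percentile 71.9. The other 6 flanking regions scored from 141 to 530, with percentiles from 15.1 to 56.9. Both regions on the RNA gene were therefore in the lower band for their width, and none of the 9 regions was in the upper.

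Terc had the lowest gene median of the 6, 29.2, above 18.5% of 5535 protein-coding genes with a like number of regions. Without flanks it was 11.9, from the 2 regions on the gene, and Daxx was then lower (9.68). Daxx was also the lower of the 2 with a flank of 1000 bp (6.86 against 26.0) and with widths matched within 100 bp (22.8 against 29.7). None of the 74 protein-coding genes of like length had as many as 9 regions, and their median was 2. The gene table gives no strand and the promoter table no window for Terc, so neither end was called its start. Near the edge of the 5000 bp limit, a Terc region 4508 bp away scored 311 (280 bp, percentile 56.9), and one left out at 5137 bp scored 268 (250 bp, percentile 62.1). For Daxx the farthest region inside, at 4914 bp, scored 1096, and the nearest outside, at 6361 bp, scored 211. At the other 4 genes the nearest region left out was 6131 bp away or more.

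Terf1 (chromosome 1, 15805546 to 15844052), which encodes the double-strand telomere binding protein TRF1, was the most sparsely covered of the 6. It had 2 regions, both at the lower-numbered end. A region across that end (980 bp) scored 683, at percentile 36.0. The other (180 bp), 975 bp into the gene, scored 198, at percentile 76.7. The remaining 37352 bp of the gene and the flank beyond it held none, and 1.73% of the gene was covered. Of 2086 genes of like length 10.8% had 2 regions or fewer, and the longest stretch without a region exceeded that of 94.9% of them. The median percentile of 56.3 rests on those 2 values alone.

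Terf2 (chromosome 8, 107069400 to 107096548), which encodes the end-protecting protein TRF2, had 6 regions, 5 in the gene and 1 beside its start. Its start site (107096548) lay in a gap of 740 bp between 107096220 and 107096961, which holds the whole window printed above. The region upstream of that gap (350 bp) scored 648, at percentile 87.0, and the region inside the gene next to it (780 bp) scored 680, at percentile 39.2. The start of Terf2 was thus flanked on both sides by regions without itself being in one. Elsewhere in the gene scores were 186 (percentile 46.4), 393 (percentile 78.3), 518 (percentile 15.2) and 137 (percentile 44.9). The regions with scores of 393 and 518 lay over LOC108167553, a pseudogene within Terf2, and the region of 780 bp also spans the microRNA gene Mir7075. Whether reads over the pseudogenes in Terf2 and Atrx also match other copies was not tested. The Terf2 median percentile was 45.6, above 47.1% of 8113 comparable genes, and the number of regions equalled the median of genes of like length, 6.

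**Figure D4:**
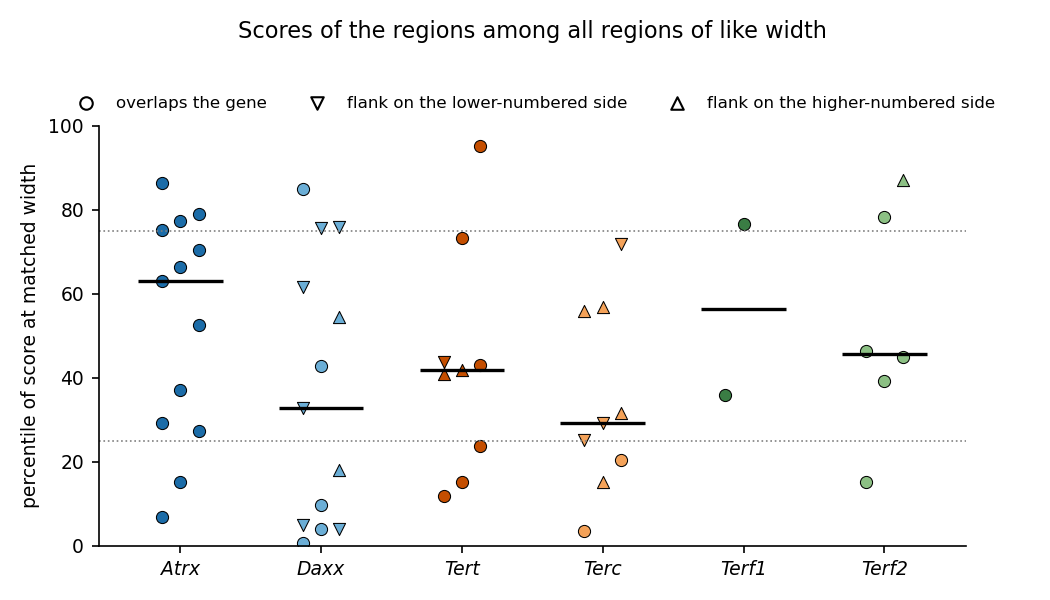
Percentile of the score among regions of like width (y axis) at the 6 genes (x axis), with circles for regions that overlap the gene, triangles for flanks and a bar at the gene median. Dotted lines mark percentiles 25 and 75, and gene medians run from 29.2 (Terc) to 63.0 (Atrx).

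In order of gene median at matched width the 6 genes were Atrx (63.0), Terf1 (56.3), Terf2 (45.6), Tert (41.9), Daxx (32.8) and Terc (29.2). This order was not fixed: besides the changes at its top and bottom given above, Daxx stood above Tert against regions of the same chromosome (36.9 against 34.2), without regions in another gene (42.7 against 41.9) and with scores of 200 or more (54.4 against 42.9). In the last of these Terf1, with 1 region left, was below Terf2, Daxx and Tert (35.9). The ranges of their single regions overlapped. Percentiles ran from 6.85 to 86.5 at Atrx, 0.521 to 84.8 at Daxx, 11.8 to 95.2 at Tert, 3.40 to 71.9 at Terc, 36.0 to 76.7 at Terf1 and 15.2 to 87.0 at Terf2. Regions of 1 gene share their surroundings and are not replicates, so no test was made between genes. Across 16406 protein-coding genes with at least 3 regions the middle gene had a median percentile of 48.3.

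**Figure D5:**
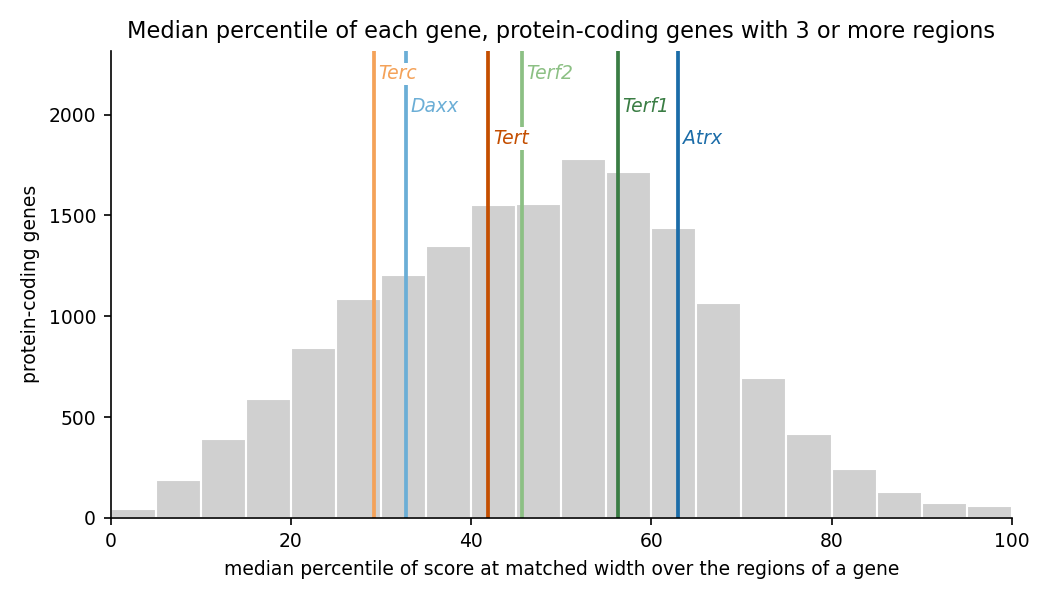
Number of protein-coding genes with at least 3 regions (y axis) by the median percentile of their regions at matched width (x axis, bins of 5), with lines at the 6 genes. Terc (29.2) and Daxx (32.8) lie on the lower side and Atrx (63.0) on the upper, and all 6 lie within the body of the distribution.

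The other genes of the pathway were taken from 5 lists with 31 genes, all of which had a region. At the 5 other shelterin genes, 4 of 21 regions (19%) were in the upper and 6 (28.6%) in the lower band, with a median percentile of 42.9. Pot1a, which encodes a single-strand telomere binding protein, had the highest gene median (66.0 over 5 regions). Acd, which encodes the shelterin bridging protein TPP1, had the lowest (8.23 over 5 regions, 4 of them in the lower band). All 5 of these genes, unlike Terf2, had their promoter window wholly inside regions, against 25.6% of all protein-coding genes with a window. At the 8 telomerase assembly genes, 8 of 62 regions (12.9%) were in the upper and 12 (19.4%) in the lower band, with a median percentile of 49. Gar1, of the H/ACA ribonucleoprotein that holds the telomerase RNA, stood highest with 68.0 over 6 regions, and Wrap53, which encodes the factor that takes telomerase to Cajal bodies, lowest with 32.4 over 13.

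The 3 genes of CST, the complex that binds single-stranded telomeric DNA and helps fill in its other strand, had 10 of 33 regions (30.3%) in the upper and 6 (18.2%) in the lower band, with a median of 63.1. Stn1 had a gene median of 69.9 over 15 regions and Ten1 of 40.5 over 10. Among 8 genes of telomere replication and end processing, 30 of 103 regions (29.1%) were in the upper and 16 (15.5%) in the lower band, with a median of 57.4. Tnks2, which encodes a tankyrase that modifies TRF1, had 78.8 over 9 regions, and Rtel1, a helicase gene, 47.9 over 6. The 7 genes of H3.3 deposition had 12 of 65 regions (18.5%) in the upper and 23 (35.4%) in the lower band, with a median of 41.4. Asf1a, a histone chaperone gene, had 75.6 over 4 regions, whereas Cabin1, of the HIRA complex, had 22.4 over 23 regions with 12 of them in the lower band. Over all 31 genes, 64 of 284 regions (22.5%) were in the upper and 63 (22.2%) in the lower band, close to the 20.9% and 23.1% of the whole list. Of 25 of these genes with a promoter window, 13 were wholly covered, 11 in part, and 1, Asf1a, had no region on it, as in Terf2. Over all protein-coding genes with a window, 25.6% were wholly covered, 32.6% in part, and 41.8% had no region. The pathway genes were not matched for CpG number, with which coverage varied.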

How the data were processed

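The series profiled 8 mouse cell lines by capture bisulfite sequencing. Novoalign 3.7.1 and Picard, with the build mm10, are named per the submitters' processing notes. The sources used here do not name the region caller or a filter. The authors deposited 1 list of regions with 1 score each, in whole numbers, pooled over the series. Per the file headers it is a narrowPeak track whose name includes min10. What the score counts is not stated.

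Genes were taken from the RefSeq table of GRCm38.p6 (21887 protein-coding genes), which has no exons. All 6 members matched by symbol, and 4 had a promoter window. Percentiles, gene ranks and window overlaps were computed with Python 3.11.15, pandas 2.3.3 and numpy 2.4.6, and checked on simulated data. Coordinates count from 1. No statistical test was made. Besides the members, each pathway list names its highest and lowest gene with at least 3 regions. Members and lists were chosen with earlier results of these data known. Part of the genotype in the labels is not reported here.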

Additional observations from a re-analysis of the deposited data

How the results depend on the processing

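The number of regions, their median percentile at matched width and the counts in the upper and lower band were recomputed under 12 alternatives, 2 of them chosen after seeing the data. Those were leaving out the 11 regions that lie in another gene, and comparing only with regions on promoter windows. Without flanks the number of regions was 33, against 52. Compared only with regions on promoter windows, the median percentile was 56.8, against 42.3. There 18 regions (34.6%) were in the upper band, against 11 (21.2%). The comparison regions there have lower scores at a given width, and no share over all regions is given for that comparison. Under the other alternatives the number of regions ran from 35 to 66 and the median percentile from 39.8 to 43.6. The count in the upper band ran from 8 to 13, and its share from 17.3% to 24.3%. Under all 12 the count in the lower band ran from 10 to 19, against 15. As a share the lower band ran from 19.2% to 33.3%, against 28.8%. The counts also follow the number of regions taken, since 19 of 66 regions were likewise 28.8%. Medians of single genes ran over these alternatives from 54.0 to 79.0 at Atrx, 6.86 to 54.4 at Daxx, 33.4 to 57.6 at Tert, 11.9 to 45.3 at Terc, 35.9 to 67.8 at Terf1 and 44.9 to 60.7 at Terf2. With scores of 200 or more, 1 Terf1 region was left. No paired analysis was possible because the list holds no value for a single line, and for the same reason no line could be left out. The depth behind a score is unknown, and a stretch without a region is not shown to lack reads.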

Other observations

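The H3.3 genes themselves, H3f3a and H3f3b, were singled out after their values were seen. H3f3a had 8 regions with a median percentile at matched width of 73.0 and a range from 11.8 to 99.7. Regions covered 45 of the 300 bp of its promoter window, which held 39 CpGs. H3f3b had 7 regions with a median of 69.6, and its window of 24 CpGs lay wholly inside a region of 830 bp that scored 378, at percentile 6.88. Both genes encode the same histone protein. With flanks counted, their gene medians stood above those of all 6 genes described above. Over regions in the gene alone the median was 90.2 at H3f3a (6 regions) and 43.1 at H3f3b (2 regions). The H3f3b value was then below Atrx (63.0), Terf1 (56.3) and Terf2 (44.9), and above Tert (33.4), Terc (11.9) and Daxx (9.68). The region on the H3f3b start was low for its width. That was common, since 37.8% of genes with a region on the promoter window had it in the lower band.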
